A study of Homo sapiens with 26 samples.

Results

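The transcriptome described here is that of control cells of the line 786-O, which was derived from a human renal carcinoma of the clear cell type and has no functional VHL. The cells come from a series in which proteins of nuclear speckles were depleted. The members are the 6 libraries of cells given a non-targeting siRNA, of 26 libraries in all, and they were chosen by their sample titles (NEGsiRNA or NTC). Poly(A) RNA was sequenced as directional libraries with paired reads of 42 bases. Cells were grown in serum-containing RPMI medium at atmospheric oxygen, transfected with siRNA in DharmaFECT 1, split after 24 h and harvested at 48 h.

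The 6 control libraries form 3 pairs, and each pair is deposited in a separate table with the siRNA groups it was compared with. The SART1 controls (NEGsiRNA) stand beside 2 groups with siRNAs against SART1. The DDX39A/SARNP controls (NTC) stand beside 4 groups, 2 with siRNAs against DDX39A and 2 against SARNP, and the FIBP/TMEM259 controls (NEGsiRNA) stand beside 4 groups, 2 against FIBP and 2 against TMEM259. The pairs are named below by the table they belong to, and no control library was aimed at any of these genes. Every group, control or siRNA, is the same line with the same VHL defect and had 2 libraries. The treatment text of every sample names 1 non-targeting siRNA, while the sample titles use 2 names for it. The labels do not say whether the 2 libraries of a pair are separate transfections, so p-values measure the spread between these libraries, which may be technical.

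VHL is the substrate receptor of a ubiquitin ligase that marks the alpha subunits of hypoxia-inducible factor (HIF) for destruction when oxygen is present. Without it HIF stays active in air, and 786-O cells are known to depend on HIF-2alpha, the product of EPAS1, because they make no functional HIF-1alpha. HIF drives genes of glucose uptake, glycolysis, blood vessel growth and matrix remodelling, and its activity is the hallmark of clear cell renal carcinoma.

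Genes were ranked within each library. A rank is given as a percentile over the 11521 genes that were listed in all 3 tables with a mean normalized signal of at least 10 over the 6 libraries, where the highest percentile is the most abundant transcript. Levels of different genes are compared per length, as TPM (transcripts per 1000000), the reads per kilobase of exons scaled to a sum of 1000000 over the 11372 ranked genes with an exon length. The 3 tables were normalized separately, so a level set across them is a description and no test was run between tables. Where 6 values are given for a gene, they follow 1 order: SART1 controls 1 and 2, DDX39A/SARNP controls 1 and 2, FIBP/TMEM259 controls 1 and 2.

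The control libraries held 11717744 to 23754370 gene reads, and the SART1 pair was the deepest with at least 23375625 each. All 26 libraries ranged from 8966609 to 26128173. Reads that fell in no gene made up 6.00% and 6.10% beside the gene reads of the DDX39A/SARNP controls and 7.24% to 8.83% in the other 4 control libraries. The 5 depleted genes were each higher in control cells than in the mean of the siRNA groups of their own table, from 0.65 for TMEM259 to 1.74 for SART1 on the log2(signal + 1) scale. Except in the SART1 table, that mean includes the siRNA groups aimed at another gene. These values therefore do not compare the strength of depletion between the genes. The SART1 signal was 3224 and 3424 in control cells and 888 to 1122 over the 4 siRNA libraries.

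Transcripts of the cytoskeleton, glycolysis, protein folding and translation led the ranking in every control library. TMSB10, which encodes the actin monomer-binding peptide thymosin beta 10, ranked first by TPM in all 6 libraries, with 18487, 19007, 7542, 7801, 16504 and 16659 TPM. ACTG1, the cytoplasmic gamma actin, ranked second in all 6, with 10247, 10279, 7406, 7201, 12317 and 12608 TPM. The order was the same in every library, while the TMSB10 level of the DDX39A/SARNP controls lay below 50% of that in each of the other 4.

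The next positions by mean rank were held by GAPDH, VIM and ACTB. GAPDH, the glyceraldehyde phosphate dehydrogenase of glycolysis, stood at 5562, 5563, 4257, 4201, 6115 and 6109 TPM. VIM, the intermediate filament protein vimentin of mesenchymal cells, stood at 5402, 5435, 4211, 4039, 5694 and 5751 TPM. ACTB, the cytoplasmic beta actin, was at 4807 to 5746 TPM and ranked between 3 and 5. The rest of the first 20 genes covered the ribosome and elongation (RPL8, EEF2, RPS12, RPS21), chaperones (HSP90AB1, HSPA8), redox and iron proteins (PRDX1, FTL, TXN), tubulins (TUBA1B, TUBB4B), the actin regulators FLNA and PFN1, the lectin LGALS1 and the glycolytic enzyme ENO1.

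The abundance was less concentrated in the DDX39A/SARNP controls than in the other pairs. The 10 most abundant genes held 4.61% and 4.52% of TPM there, and 6.59% to 6.89% in the other 4 libraries. The number of genes that made up 50% of TPM was 810 and 814, against 607 to 630. Protein-coding genes were 94.5% of the ranked genes.

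Gene lists written from textbook knowledge placed most housekeeping functions near the top of the ranking. The kidney genes that were ranked at all had medians near its middle. The median percentile by TPM was 99.0 for 26 chaperone genes, 98.2 for 17 glycolysis genes, 97.8 for 76 cytosolic ribosomal protein genes, 97.8 for 30 actin cytoskeleton genes and 93.7 for 34 cell cycle genes, beside 49.9 over all ranked genes with a length. Ribosomal protein genes alone took 5.03% to 7.66% of all TPM, and actin cytoskeleton genes 3.81% to 5.52%. Genes of HIF signalling itself had a median percentile of 60.7. It was 49.1 for the 11 ranked of 25 kidney tubule genes and 53.7 for the 3 ranked of 15 distal nephron and podocyte genes. Genes that were not ranked do not enter these medians.

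**Figure D1:**
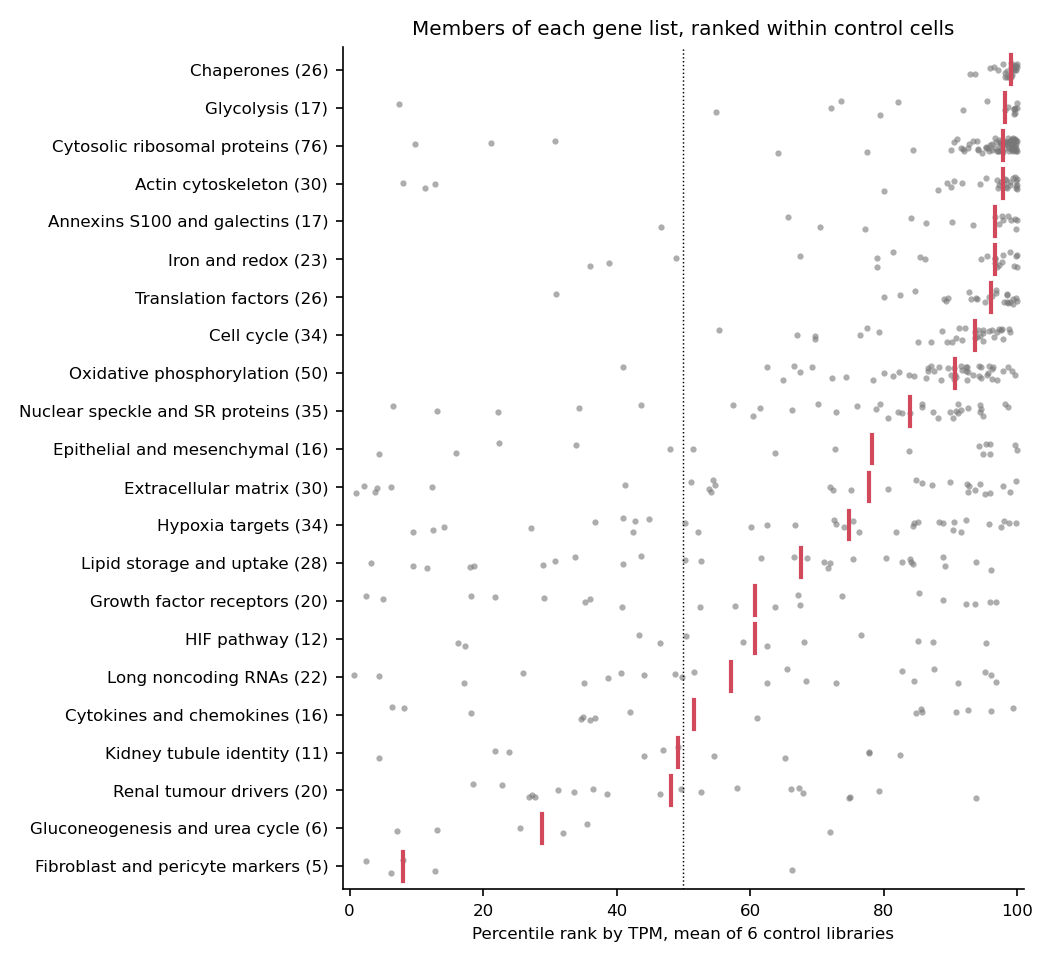
Percentile rank by TPM (x axis, mean of 6 control libraries) of the ranked members of 22 gene lists (y axis, number of members in brackets). Each point is a gene, its height within a row is arbitrary, each red line is the median of a list and the dotted line marks percentile 50; chaperone (99.0), glycolysis (98.2) and ribosomal protein genes (97.8) sit at the right edge, and fibroblast and pericyte markers (8.0) at the left.

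Many ribosomal protein mRNAs and some elongation factor mRNAs are known to begin with a C followed by a run of pyrimidines, the 5' terminal oligopyrimidine tract, through which their translation is controlled together. The start sites of abundant members are shown because these transcripts hold the largest share of TPM of any list here. Sequences are from RefSeq (GRCh38.p14), 30 bases each, 5' to 3' on the gene's strand. The annotated start is base 15, and capitals mark the unbroken run of C and T that begins there, as far as the window shows it.
RPS12: cgtgcggatgaggcCTCTTTCCCTgccgcc
RPS21: gtgactagctgcttCCTTTCTCTCTCgcgc
RPL7A: cacaattccctttcCTTTCTCTCTCCTCCC
RPS6: agcggaagttggccCTCTTTTCCgtggcgc
RPL35: gccccgcctacttcCTCTTTCCCTCggagc
EEF2: ttgacgtcagcgttCTCTTCCgccgtcgtc
RPL11: gcctcctggcccataaggccctcggccgga
ACTG1: aggccgcggtcggtCTCagtcgccgctgcc

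These windows lie at chr6:132814555-132814584 (+) for RPS12, chr20:62387089-62387118 (+) for RPS21, chr9:133348204-133348233 (+) for RPL7A, chr9:19380221-19380250 (-) for RPS6 and chr9:124861942-124861971 (-) for RPL35. The other 3 are at chr19:3985448-3985477 (-) for EEF2, chr1:23691765-23691794 (+) for RPL11 and chr17:81512784-81512813 (-) for ACTG1. A run of at least 5 C or T on the gene's strand from the annotated start was present in 41 of the 61 ribosomal protein genes with a window (67.2%), of 76 ranked, and in 5.22% of all 27305 windows. Among the 874 genes that were in the first 1000 by TPM in all 6 libraries, it was present in 12.7% of the 707 with a window. RPL11, at a mean of 1876 TPM, had no such run at the start annotated here, and in ACTG1 the run ended after 3 bases.

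Ribosomal protein mRNAs differed widely in level. RPL8 was the highest at 4668, 4702, 3434, 3267, 4842 and 4751 TPM, followed by RPS12 at 3577, 3669, 2214, 2274, 3711 and 3700 TPM. At the other end RPL36A stood at 2.66, 4.06, 2.44, 3.13, 3.25 and 3.44 TPM, RPS10 at 6.61 to 8.12 TPM and RPL17 at a mean of 12.6 TPM. These 3 genes share exons with annotated readthrough genes and the family has many processed pseudogenes, so the authors' counting could have split or dropped their reads, and their levels are uncertain. RPL21 and RPS18 were not listed in the tables used here. Of the translation factors, EEF2, which moves the ribosome along the mRNA, stood at 3283 to 3505 TPM, while EIF4E, which binds the cap, was the lowest listed member at 10.1 to 14.6 TPM.

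All 17 glycolysis genes were listed, and the pathway was carried by 1 dominant isozyme at several steps. For aldolase, ALDOA was at 1923, 1943, 2005, 1938, 1924 and 1915 TPM and ALDOC at 1.92 to 2.93 TPM. For hexokinase, HK1 was at 202 to 258 TPM and HK2 at 27.9 to 44.7 TPM. For phosphofructokinase, PFKP was at 725 to 878 TPM, and PFKL (68.4 to 73.7 TPM) and PFKM (56.4 to 71.3 TPM) were lower in every library. Both lactate dehydrogenase genes were abundant, with LDHA at 1229 to 1619 TPM and LDHB at 1253 to 1734 TPM, and LDHB was above LDHA in every library.

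The letters ACGTG, the core of many HIF binding sites and also read by other factors, were searched on both strands over the 250 bases before and 50 after each annotated start. They were present in 8 of 17 glycolysis genes (47.1%) in 31.4% of the 707 windows of genes in the first 1000 by TPM, and in 21.6% of all 27305 windows. Windows with the first match are shown for 3 abundant enzymes, with the match in capitals. Capitals reading CACGT mark the motif on the other strand. In GAPDH and LDHA a g follows them, so ACGTG also lies on the printed strand.
GAPDH: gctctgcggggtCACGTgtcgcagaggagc
ALDOA: ccttcccctccaCACGTcaacgattctatt
LDHA: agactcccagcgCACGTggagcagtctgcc

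These lie at chr12:6535171-6535200 (+), chr16:30064089-30064118 (+) and chr11:18394366-18394395 (+) in GRCh38.p14. A match is a run of letters and no measurement of binding. The opposite pathway was thinly represented, since FBP1 and PCK1, the gluconeogenic enzymes of proximal tubule, were among 6 of 12 genes of gluconeogenesis and the urea cycle not listed in the tables used here. The listed 6 had a median percentile of 28.8, with ASL, the argininosuccinate lyase, the highest at 61.2 to 71.5 TPM and ARG2 the lowest at 1.31 to 3.42 TPM.

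EPAS1 mRNA exceeded HIF1A mRNA in every control library. EPAS1 was at 52.7, 53.0, 83.6, 82.7, 40.8 and 38.8 TPM, and HIF1A at 5.14, 4.38, 6.57, 5.47, 5.77 and 5.42 TPM, the lowest level of the 12 listed HIF pathway genes on average. VHL mRNA itself was present at 20.2, 19.7, 30.6, 30.9, 22.9 and 22.7 TPM. ARNT, the partner subunit of both alpha subunits, was at 25.5 to 34.5 TPM, and the HIF prolyl hydroxylases EGLN3 (42.0 to 47.1 TPM) and EGLN1 (32.5 to 48.5 TPM) were at similar levels. ELOB, an adaptor of the VHL ligase, was the highest at 336 to 398 TPM.

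Known HIF target genes spanned nearly the whole range of expression, with a median percentile of 74.8 over the 34 ranked of 39. SLC2A1, the glucose transporter GLUT1, was among the most abundant at 741, 776, 955, 925, 860 and 853 TPM, and CCND1, cyclin D1, at 518, 537, 706, 686, 537 and 495 TPM. VEGFA, the vascular growth factor, was in the middle at 65.7, 66.7, 96.0, 93.6, 62.9 and 57.7 TPM. ANGPTL4, a secreted inhibitor of lipoprotein lipase, was the lowest target on average and differed also within pairs, at 3.31, 1.62, 4.95, 8.02, 1.44 and 1.15 TPM. CA9 and NDUFA4L2, markers of clear cell renal carcinoma tissue, and CXCR4 and EPO were not listed in the tables used here.

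**Figure D2:**
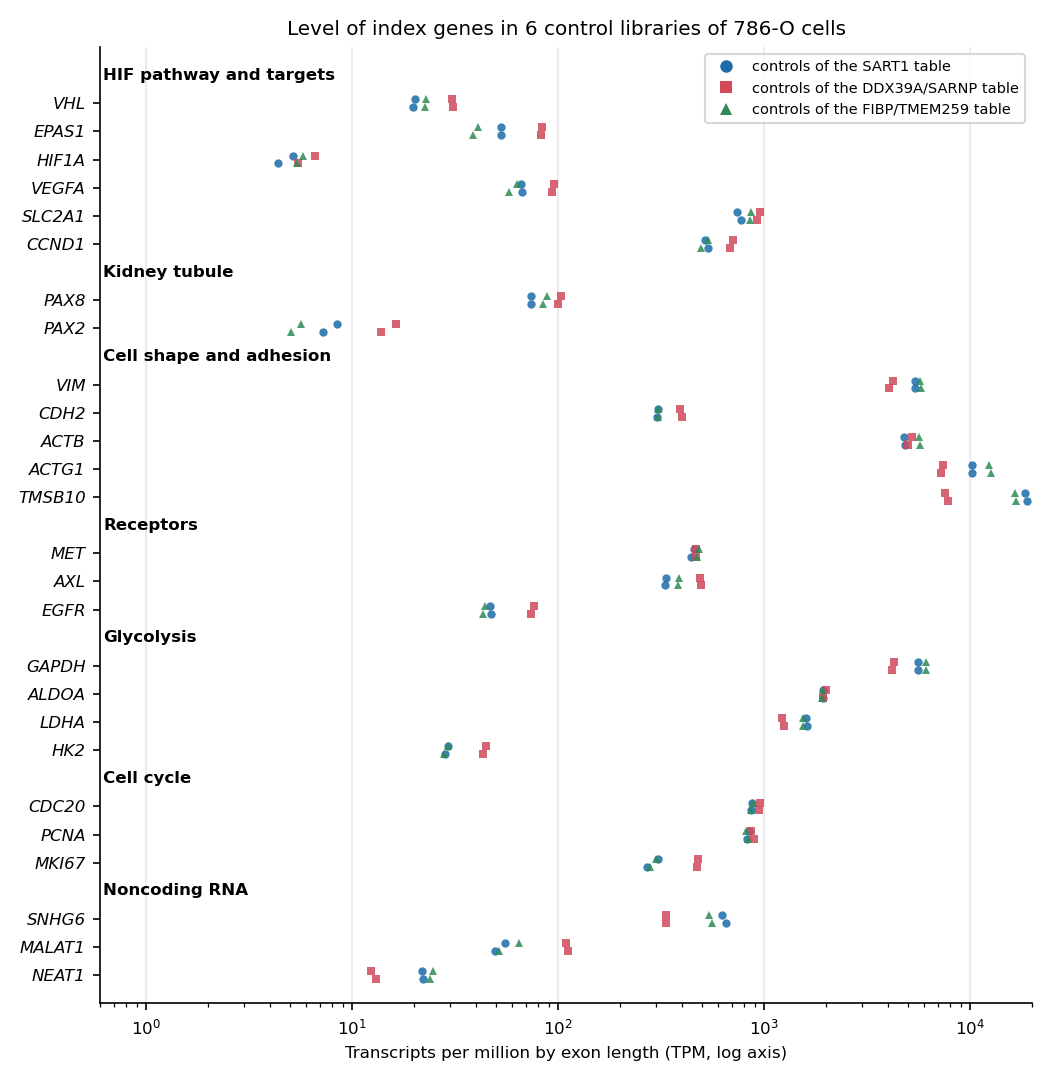
Level of index genes in TPM (x axis, log scale) in each of the 6 control libraries, coloured by the table the pair belongs to; each gene (y axis) has 6 points. EPAS1 lies above HIF1A in every library, NEAT1 is lower and MALAT1 higher in the DDX39A/SARNP controls than in the other 4, and MET, ALDOA and PCNA differ little between pairs.

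Kidney tubule identity was partly retained at the mRNA level. Of 25 tubule genes 11 were ranked, among them the renal lineage transcription factors PAX8, LHX1 and PAX2. PAX8 stood at 73.8, 73.8, 103, 100, 88.3 and 84.8 TPM, and PAX2 at 5.03 to 16.4 TPM with both DDX39A/SARNP controls above the other 4. CDH6, the proximal tubule cadherin, was at 18.7 to 30.2 TPM. GGT1, a brush border peptidase, was the highest on average at 93.1 to 130 TPM, and its near-identical relatives make this level uncertain.

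Markers of the differentiated tubule were mostly missing from the ranking. HNF4A, CDH16, LRP2, AQP1, SLC34A1, SLC22A6 and SLC5A2 were not listed in the tables used here, and CUBN and SLC3A1 were listed in the FIBP/TMEM259 table only, at signals of 8.48 to 12.7. Of 15 distal nephron and podocyte genes 3 were ranked, SYNPO, WT1 and PODXL, and UMOD, AQP2 and NPHS1 were not listed. Of the markers of other cell types, no endothelial gene was ranked (0 of 12), and 3 of 15 leukocyte genes were (CD68, CD74 and CSF1R, without PTPRC), at a median percentile of 41.1. The 5 of 12 fibroblast and pericyte genes that were ranked had a median percentile of 8.0. Of 15 hepatocyte and neuron genes 4 were ranked, at a median percentile of 85.9 and a summed 447 to 549 TPM, among them the tubulin gene TUBB3 (180 to 283 TPM) and the neurofilament gene NEFL (128 to 202 TPM), while ALB and MAP2 were not ranked.

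The line expressed adhesion, filament and matrix genes of both mesenchymal and epithelial cells. CDH2, N-cadherin, was at 307, 304, 390, 399, 304 and 306 TPM, while CDH1, E-cadherin, was not listed in the tables used here. KRT18 (355 to 420 TPM) and KRT8 (295 to 410 TPM), the keratins of simple epithelia, were abundant, and EPCAM was at 7.03 to 9.07 TPM. TGFBI, a matrix protein induced by TGF-beta, led the matrix genes at 1777 to 2233 TPM, and FN1, fibronectin, was at 340 to 455 TPM. The fibrillar collagen gene COL1A1 was at 1.64 to 2.84 TPM, and the basement membrane collagen gene COL4A1 at 203 to 319 TPM.

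Among receptors of growth factors, MET, the receptor of hepatocyte growth factor, was the highest on average and the most even, at 457, 443, 467, 469, 485 and 474 TPM. AXL, the receptor of GAS6, was above MET in the DDX39A/SARNP controls and below it in the other 4, at 333, 330, 491, 492, 385 and 382 TPM. EGFR stood at 46.6, 47.1, 76.2, 73.5, 44.4 and 43.3 TPM. The EGFR ligand gene TGFA was above EGFR in every library, at 190 to 305 TPM, and the AXL ligand GAS6 was at 56.9 to 80.0 TPM. KDR, FLT1, KIT and the MET ligand HGF were not listed in the tables used here. Of the cytokines, MIF led at 1002 to 1574 TPM, LIF was at 197 to 212 TPM, CXCL8 at 31.7 to 59.3 TPM and IL6 at 15.1 to 21.5 TPM.

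Genes of DNA replication and mitosis were expressed at high levels. PCNA, the sliding clamp of DNA polymerase, was at 846, 829, 863, 896, 820 and 836 TPM, and CDC20, an activator of the anaphase-promoting complex, at 865 to 953 TPM. MKI67 was at 305, 269, 478, 475, 297 and 281 TPM. The tumour suppressor genes CDKN2A and CDKN2B were not listed in the tables used here. SQSTM1, an autophagy adaptor in the amplified region of chromosome arm 5q of these tumours, led the list of tumour driver genes at 281 to 292 TPM.

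Ranks were highly stable between the 2 libraries of a pair and less so between pairs. The median absolute difference in percentile was 0.77 points in the SART1 pair, 1.04 in the DDX39A/SARNP pair and 1.02 in the FIBP/TMEM259 pair, with Spearman's rho of 0.999, 0.998 and 0.998 over 11521 genes. Genes are not independent replicates, and libraries of a table share their processing. Between the SART1 and FIBP/TMEM259 controls the difference was 1.597 to 1.70 points (rho 0.994 to 0.995). Between the DDX39A/SARNP controls and either other pair it was 2.27 to 2.65 points (rho 0.985 to 0.988).

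**Figure D3:**
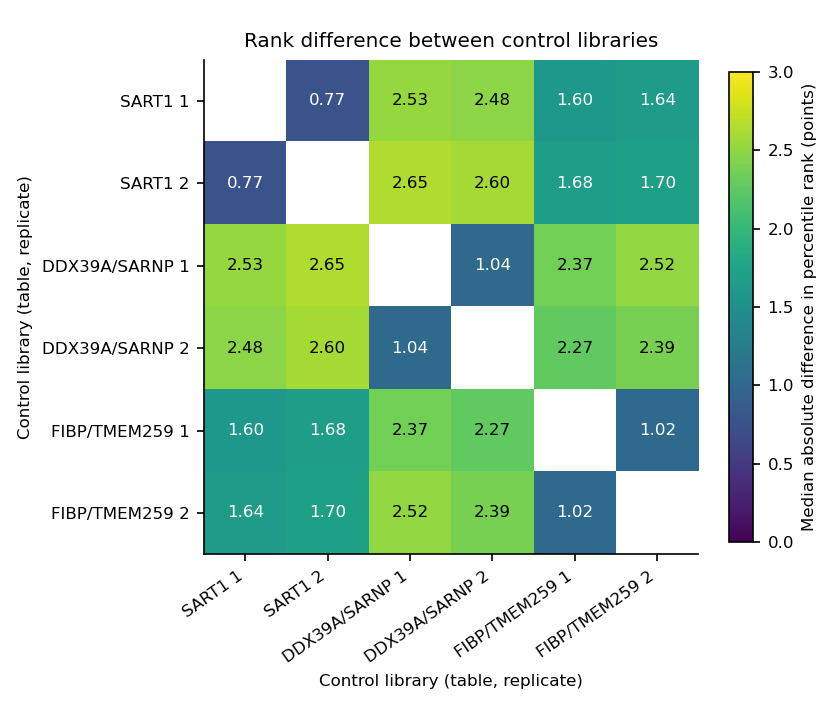
Median absolute difference in percentile rank by signal (colour and printed number, in percentile points) for each pair of the 6 control libraries, over 11521 genes. The 3 replicate pairs have the smallest values (0.77 to 1.04), and each value that pairs a DDX39A/SARNP control with another table is above 2.2.

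The share of genes that moved by more than 5 points was 0.43% to 1.35% within a pair and 8.13% to 9.85% between the SART1 and FIBP/TMEM259 controls. It was 20.6% to 25.0% between the DDX39A/SARNP controls and the others. Ranks were firmest at the top: in the highest of 5 equal classes of signal the median difference was 1.13 points between tables and 0.27 within, and in the middle class 3.39 and 1.44. Of the first 100 genes by signal, 68 were shared by all 6 libraries and 132 were among the first 100 of any. By TPM 73 were shared.

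Whether both controls of 1 table ranked above, or below, all 4 others with at least 5 points between the nearest libraries was counted for each gene. Over all tables this held for 1123 of the 11521 genes (9.75%). The DDX39A/SARNP controls were above the others for 479 genes (4.16%) and below for 459 (3.98%). The SART1 controls were above for 77 (0.668%) and below for 57 (0.495%), and the FIBP/TMEM259 controls above for 46 (0.399%) and below for 56 (0.486%). With 1 control library left out the criterion is easier to meet, and the counts rose to as many as 655 above and 690 below for the DDX39A/SARNP table, 146 and 161 for SART1, and 118 and 121 for FIBP/TMEM259. A criterion of 10 points left 104 above and 67 below for DDX39A/SARNP, 6 and 1 for SART1, and 2 and 7 for FIBP/TMEM259.

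KRT19, a keratin of simple epithelia, had the widest gap. It stood at percentiles 82.0, 82.4, 48.0, 48.7, 80.1 and 80.1, and at 204, 206, 64.2, 65.9, 187 and 186 TPM, so the DDX39A/SARNP controls lay far below the other 4. RARRES2, the precursor of the chemoattractant chemerin, was also low there, at 565, 561, 124, 128, 428 and 396 TPM. GJA1, the gap junction protein connexin 43, followed at 37.5, 37.0, 14.6, 15.1, 40.8 and 40.1 TPM. LAYN, a hyaluronan receptor, stood at 40.2, 38.4, 8.88, 9.20, 30.0 and 34.2 TPM.

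In the opposite direction, DPYSL2, a cytoskeletal protein of axon growth, had the widest gap, at 5.04, 4.60, 21.5, 23.8, 6.22 and 4.61 TPM. PXDN, the peroxidasin that crosslinks collagen IV, was at 8.44, 8.60, 25.6, 24.9, 8.71 and 9.47 TPM. TMEM158 (105 and 110 TPM against 31.4 to 36.6), the kinase adaptor PAG1 (16.5 and 17.5 against 4.20 to 6.09 TPM) and the semaphorin receptor PLXNA2 (8.04 and 8.29 against 1.77 to 2.35 TPM) were likewise higher in the DDX39A/SARNP controls. The genes named for each table were chosen by the widest gaps in rank, so the lack of overlap is no result for them.

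CYP1B1, a cytochrome P450 of aryl hydrocarbon and steroid metabolism, differed between all 3 pairs, at 147, 141, 35.3, 35.6, 69.6 and 75.6 TPM. It was named both as high in the SART1 controls and as low in the DDX39A/SARNP controls. ANPEP, the brush border aminopeptidase N, also differed between all pairs, at percentiles 55.8, 58.4, 26.7, 29.1, 43.5 and 43.2. ATP5J2, a subunit of the mitochondrial ATP synthase, was at 162, 178, 67.9, 81.1, 82.4 and 87.2 TPM and so set the SART1 controls apart.

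Genes below in the SART1 controls included LTBP4, a matrix protein that binds latent TGF-beta, at 13.1, 13.4, 36.3, 33.4, 20.4 and 22.2 TPM. ITGB3, the integrin beta 3 subunit, was at 71.5, 69.3, 174, 166, 102 and 102 TPM. CENPE, a kinesin of the kinetochore, was at 39.2, 20.3, 66.7, 68.4, 71.3 and 66.2 TPM, and here the SART1 controls also differed from each other, at percentiles 76.4 and 59.9. AKAP9, a scaffold of the centrosome and Golgi, had the same uneven SART1 pair at percentiles 54.2 and 36.3, beside 57.8 at most in the DDX39A/SARNP controls and 66.6 and 66.4 in the FIBP/TMEM259 controls, for which it was named as high.

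The FIBP/TMEM259 controls were set apart by lower CLDN2, the cation channel claudin of proximal tubule, at 13.7, 14.2, 14.2, 12.4, 1.57 and 1.58 TPM. VCAM1, an adhesion molecule for leukocytes, was at 30.5, 31.7, 39.1, 35.3, 16.4 and 16.0 TPM. SCD, the stearoyl-CoA desaturase, was at 55.1, 62.6, 150, 159, 32.0 and 37.1 TPM and so differed between all 3 pairs. Higher there were EDN2, endothelin 2, at percentiles 12.6, 14.7, 4.8, 4.8, 24.7 and 28.3, and TRAF1, an adaptor of tumour necrosis factor receptors, at 17.6, 17.8, 16.2, 14.6, 28.0 and 29.2 TPM.

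**Figure D4:**
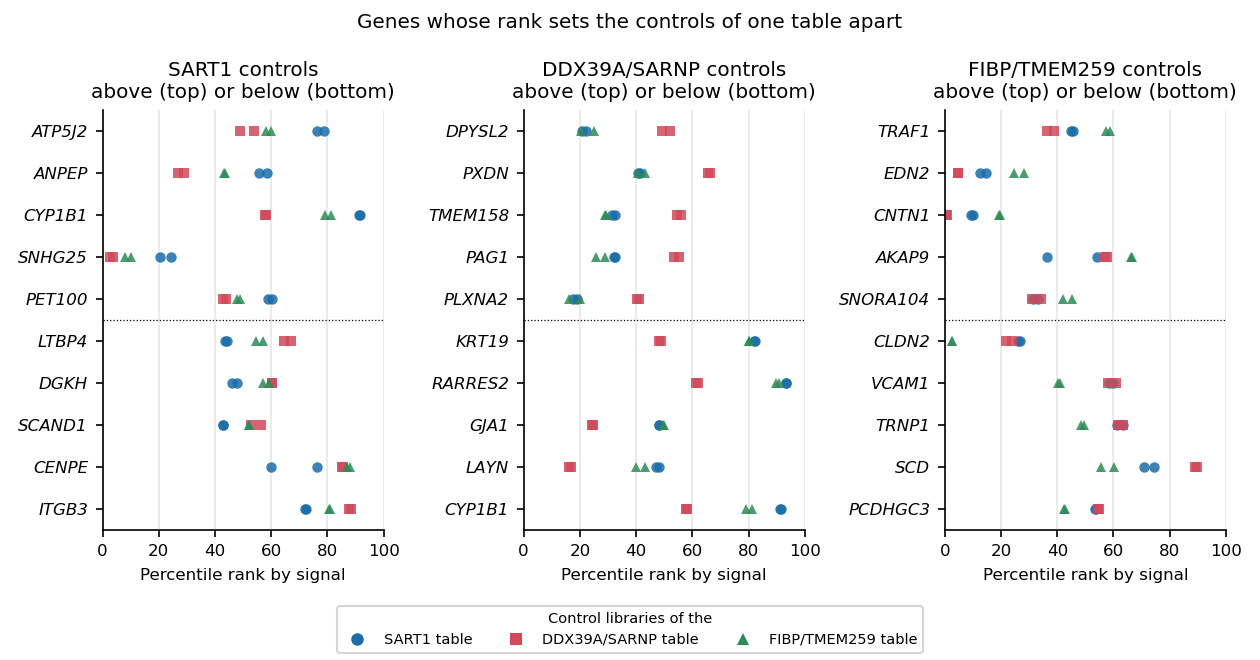
Percentile rank by signal (x axis) of up to 5 genes above and 5 below for each table (panels), in all 6 control libraries (points, coloured and shaped by table). The panel for the DDX39A/SARNP table has the widest gaps, up to 31.4 points for KRT19, and CENPE and AKAP9 show uneven SART1 controls.

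The siRNA libraries of a table, which this choice did not use, gave a second reading of the same offsets. For the siRNA libraries any gap counted, however small. Of the 459 genes low in the DDX39A/SARNP controls, 41.8% had all 8 siRNA libraries of that table below every siRNA library of the other tables. This held for 4.64% of all ranked genes. For the 479 high genes the share was 32.6%, against 4.13%. The SART1 genes gave 48.1% above and 22.8% below, against 7.11% and 6.07%, and the FIBP/TMEM259 genes 19.6% above and 25.0% below, against 1.35% and 1.03%. The siRNA libraries differ between tables in the gene depleted as well, so table and target cannot be told apart in this reading.

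Gene length moved with the offset of the DDX39A/SARNP controls. Genes high there had a median exon length of 7397 bases and genes low there 3685 bases, beside 5210 bases over ranked genes with a length. Across 5 equal classes of exon length, the median log2 difference of the DDX39A/SARNP controls from the mean of all 6 went from -0.01 and -0.02 in the shortest class to 0.14 and 0.15 in the longest. In the same step the SART1 controls went from 0.01 and 0.01 to -0.08 and -0.09, and the FIBP/TMEM259 controls from 0.01 and 0.01 to -0.04 and -0.06. The genes below in the SART1 controls were also long, with a median of 7035 bases, and low in GC, with a median of 39.4% against 47.6% over all. The table of the DDX39A/SARNP controls also lacks an entry for reads aligned more than once, which made up 27.1% to 28.2% beside the gene reads of the other 4 libraries. The part of length, GC content, library preparation or alignment settings in these rank differences was not tested.

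None of 34 cell cycle genes and none of 26 translation factor genes met the criterion of 5 points, and 1 of 17 glycolysis genes did, beside 9.75% of all ranked genes. These lists lie near the top of the percentile scale, where the ranks of all genes moved least, so their counts do not show that their levels were more stable. Of 22 long noncoding RNAs 11 did, 9 of them low in the DDX39A/SARNP controls. SNHG6, a host gene of small nucleolar RNAs, was at 627, 656, 334, 335, 542 and 557 TPM, and NEAT1, the scaffold RNA of paraspeckles, at 21.9, 22.1, 12.4, 13.0, 24.7 and 23.9 TPM. MALAT1, a long RNA of nuclear speckles, went the other way with 55.1, 49.2, 109, 111, 64.8 and 51.8 TPM. Of 11 kidney tubule genes 5 met the criterion. Of 76 ribosomal protein genes 9 did, 8 of them low in the DDX39A/SARNP controls, and of 50 oxidative phosphorylation genes 8, of which 7 were low there.

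The control cells were then compared with the mean of the siRNA groups of their own table. A call can therefore come from the groups of a single target and need not hold for every targeting siRNA. In the SART1 comparison 3782 of 11823 genes (32% of those tested) were higher in control cells than the mean of the siRNA groups and 3860 (32.6%) lower, at an adjusted p below 0.05 (limma, Benjamini-Hochberg). In the DDX39A/SARNP comparison 2350 of 11673 were higher (20.1%) and 2202 lower (18.9%), and in the FIBP/TMEM259 comparison 1140 of 11768 were higher (9.69%) and 951 lower (8.08%). The median size of a called difference was 0.32, 0.25 and 0.21 on the log2(signal + 1) scale. In the DDX39A/SARNP table leaving out a control library lowered the counts to as few as 1458 and 1475, and in the FIBP/TMEM259 table to as few as 505 and 436. On recovered reads edgeR called 1192 and 967 in the FIBP/TMEM259 table and DESeq2 639 and 554, and in the DDX39A/SARNP table DESeq2 called 1422 lower. Both targets of a table share their 2 controls, so a chance deviation of that pair enters every comparison within the table.

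The 3 tables share no library. Of 11486 genes tested in all of them, 306 were higher in control cells in each (2.66%) and 351 lower in each (3.06%). Under DESeq2 these counts were 164 and 224. Leaving out 1 library moved them to between 153 and 308 higher and between 207 and 357 lower, with the lowest counts without control 1 of the FIBP/TMEM259 table. Both controls of the SART1 table lay above every siRNA library for 30.1% of genes and below for 30.2%, in the DDX39A/SARNP table for 4.99% and 5.92%, and in the FIBP/TMEM259 table for 4.5% and 4.44%. In 41 of the 306 and 68 of the 351, both controls lay beyond every siRNA library of their table in all 3 tables. Other genes went in opposite directions between tables: of the genes higher in the SART1 controls, 603 were lower in the DDX39A/SARNP controls than in their siRNA groups.

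Cell cycle genes were the list with the most members higher in control cells in all 3 tables. In the SART1 comparison 18 of 34 were higher and 9 lower, in the DDX39A/SARNP comparison 18 and 3, and in the FIBP/TMEM259 comparison 16 and 2. Over all genes 32%, 20.1% and 9.69% were higher, and 32.6%, 18.9% and 8.08% lower. The share higher in all 3 tables was 2.66%. Median log2 differences of the list were 0.09, 0.13 and 0.09, beside 0.01 over all genes in each. The 11 higher in all 3 tables were the helicase subunit genes MCM3, MCM4, MCM5, MCM6 and MCM7, PCNA, the nucleotide synthesis genes TYMS and RRM2, the G1/S genes E2F1 and CCNE1, and CDKN2C, an inhibitor of CDK4 and CDK6. CDKN1A, the p21 inhibitor of cyclin-dependent kinases, was the 1 lower in all 3. Under quantile normalization the counts in all 3 tables were 12 and 1, and under DESeq2 8 and 0.

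CCNE1, cyclin E1, showed the largest shared difference of the cell cycle list. Its signal in the SART1 table was 478 and 454 in control cells and 273 to 319 in 4 siRNA libraries, a log2 difference of 0.66 (SE 0.07, limma adjusted p = 2.4e-08). In the DDX39A/SARNP table it was 265 and 261 against 135 to 246 in 8 libraries (0.49, SE 0.08, limma adjusted p = 9.8e-06), a call lost when only the SARNP groups were used (adjusted p = 0.075). In the FIBP/TMEM259 table it was 252 and 233 against 146 to 201 in 8 libraries (0.53, SE 0.09, limma adjusted p = 2.3e-05).

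RRM2, the small subunit of ribonucleotide reductase, also had controls above every siRNA library in all 3 tables. In the SART1 table it was 14121 and 13780 against 8337 to 9409, a log2 difference of 0.65 (SE 0.03). The differences were 0.32 (SE 0.03) in the DDX39A/SARNP table and 0.20 (SE 0.03) in the FIBP/TMEM259 table. CDKN1A differed by -0.42, -0.77 and -0.21, but its siRNA libraries ranged from below to above the controls in every table. Its call in the FIBP/TMEM259 table was lost without control 1 of that table or with the TMEM259 groups alone, where the adjusted p reached 0.85.

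Outside the lists, COX20, an assembly factor of cytochrome c oxidase, was among the 8 higher genes named for the size of the smallest of their 3 differences. The rule took only genes with both controls beyond every siRNA library in each table, so that gap is no result for them or for CCNE1. It had 1952 and 2054 in control cells of the SART1 table against 1361 to 1496 (0.48, SE 0.04). In the DDX39A/SARNP table it had 846 and 844 against 565 to 678 (0.47, SE 0.05), and in the FIBP/TMEM259 comparison 1139 and 1104 against 760 to 968 (0.35, SE 0.05). The inositol pyrophosphate kinase gene PPIP5K1 was higher by 0.73, 0.34 and 0.45, and RFXAP, a factor of MHC class II promoters, by 0.75, 0.46 and 0.40. ZNF589, ANKRD36C, LOC90768 and the pseudogene GGT8P completed the 8 named genes, at 0.40 to 0.71. Of these 8 only COX20 kept its call in every alternative tried and every table, and the other 7 lost it in at least 1, most often when a FIBP/TMEM259 control was left out.

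Of the genes lower in control cells in all 3 tables, 8 were named by the same rule. SEC24A, a cargo-binding subunit of the COPII coat of vesicles leaving the endoplasmic reticulum, had 1721 and 1702 in control cells of the SART1 table against 3127 to 3573. In the DDX39A/SARNP table it had 853 and 897 against 1294 to 1816, and in the FIBP/TMEM259 comparison 1014 and 1147 against 1464 to 1674. The log2 differences were -0.97, -0.87 and -0.52, each with SE 0.04.

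DESI2, a protease of the desumoylating isopeptidase family, differed by -0.56, -0.97 and -0.78. CSGALNACT2, an enzyme of chondroitin sulfate synthesis, differed by -0.75, -1.03 and -0.60. GNPNAT1, an enzyme of UDP-N-acetylglucosamine synthesis, differed by -0.67, -0.57 and -0.54. SMIM15 (-0.60, -0.93 and -0.63), the autophagy gene WIPI1 (-0.44, -0.58 and -0.54) and the inositol phosphatase gene INPP5A (-0.43, -1.10 and -0.66) were also lower. Only CA13, a cytosolic carbonic anhydrase, lost its call in an alternative among these 8, and in the FIBP/TMEM259 table its controls, at 42.4 and 40.6, lay just under the lowest siRNA library at 42.9.

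**Figure D5:**
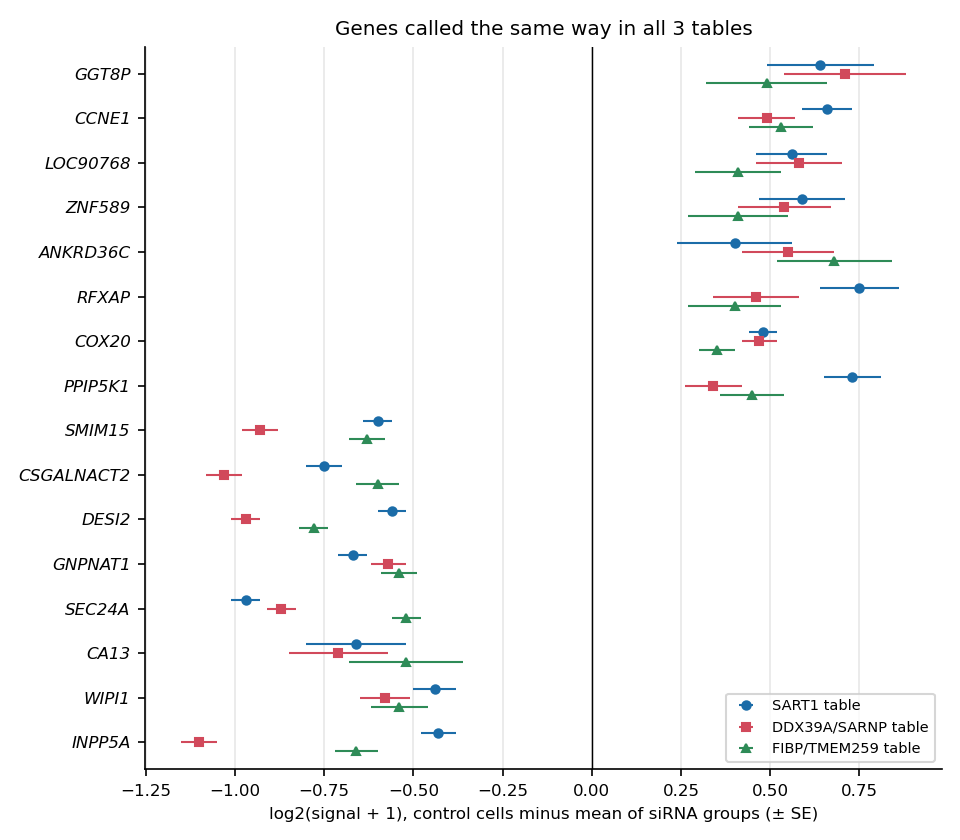
Difference between control cells and the mean of the siRNA groups of the same table, on the log2(signal + 1) scale (x axis, points with ± SE from limma), for the 8 genes higher and 8 lower in control cells in all 3 tables (y axis), with 1 point per table. The lower genes reach -1.10 (INPP5A), and the higher genes reach 0.75 (RFXAP).

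Epithelial and mesenchymal genes had more members lower than higher in control cells in each table. Of 16, 2 were higher and 11 lower in the SART1 comparison, 4 and 6 in DDX39A/SARNP, and 2 and 6 in FIBP/TMEM259. The shares of all genes were 32% and 32.6%, 20.1% and 18.9%, and 9.69% and 8.08%. The median log2 differences were -0.23, -0.07 and -0.03, beside 0.01 over all genes in each. Lower in all 3 tables were 5 of 16, beside 3.06% of all genes: the tight junction gene CLDN1, FN1, KRT18, and SNAI1 and SNAI2, repressors of epithelial genes. Higher in all 3 were KRT19 and VIM, and under DESeq2 the counts were 2 higher and 3 lower. Under quantile normalization they were 1 and 4, and VIM lost its call in every table. CLDN1 differed by -1.08, -0.53 and -0.58, but its controls lay below every siRNA library in the SART1 table alone, and its DDX39A/SARNP call was lost with the SARNP groups alone (limma adjusted p = 0.11).

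Cytokine genes were lower in control cells for 16 of 17 in the SART1 comparison, beside 32.6% of all genes, with a median of -0.99. In the DDX39A/SARNP comparison 4 were higher and 5 lower of 16, beside 20.1% and 18.9% of all genes. In FIBP/TMEM259 0 were higher and 6 lower of 16, beside 9.69% and 8.08%. The 3 lower in all 3 tables, of 16 tested, were CXCL5, GDF15 and LIF, beside 3.06% of all genes, and under DESeq2 the count was 1. GDF15 had a signal of 11.7 in control 1 of both the DDX39A/SARNP and FIBP/TMEM259 tables, near the minimum mean of 10 used for ranking. The FIBP/TMEM259 calls of GDF15 and LIF were each lost without control 1 and with the TMEM259 groups alone. CXCL5, a chemokine for neutrophils, differed by -1.08, -0.10 and -0.56, and its DDX39A/SARNP call was lost in 7 of 19 alternatives.

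Ribosomal protein genes were higher in control cells for 60 of 76 in the DDX39A/SARNP table (34 under DESeq2) and 32 of 76 in the FIBP/TMEM259 table with 0 lower, while in the SART1 comparison 4 were higher and 39 lower. Over all genes 20.1% were higher and 18.9% lower in the DDX39A/SARNP comparison. The shares were 9.69% and 8.08% in FIBP/TMEM259, and 32% and 32.6% in SART1. The SART1 direction turned to 25 higher and 4 lower under quantile normalization, while edgeR gave 4 and 37 and DESeq2 4 and 35. Oxidative phosphorylation genes in the SART1 table turned in the same way, from 10 higher and 23 lower of 50 to 19 and 4. For these genes in the SART1 table edgeR gave 11 and 23, and DESeq2 10 and 18. In the DDX39A/SARNP comparison 11 of the 50 were higher and 1 lower, and in FIBP/TMEM259 7 and 1, beside the same shares of all genes.

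Of 34 hypoxia targets tested in all 3 tables, 0 were higher and 2 lower in each (1 under DESeq2), beside 2.66% and 3.06% of all genes. A count this small is not read as a result about the list. The 2 were PLOD2, a collagen lysyl hydroxylase, and BNIP3, a mitophagy receptor. PLOD2 differed by -0.47, -0.42 and -0.16, and its FIBP/TMEM259 call was lost without control 1 and with the TMEM259 groups alone. BNIP3 differed by -0.15, -0.20 and -0.14, and lost its call in at least 1 alternative in each table, among them quantile normalization for SART1 and DESeq2 for FIBP/TMEM259. Among hypoxia targets, 15 of 35 were higher in control cells and 14 lower in the SART1 comparison, beside 32% and 32.6% of all genes. In the DDX39A/SARNP comparison 6 of 34 were higher and 19 lower, beside 20.1% and 18.9%. In the FIBP/TMEM259 comparison 12 of 35 were higher and 4 lower, beside 9.69% and 8.08%.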

How the data were processed

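Poly(A) RNA of 786-O cells was sequenced in 26 libraries, 6 of them controls. The authors aligned to hg19 with STAR and used Picard, HTSeq and DESeq2, per the submitters' processing notes. Versions, the annotation and the counted strand are not given in the sources used here. The deposited signal is gene counts divided by size factors, separately in each of 3 tables. Its steps gave whole reads, within 0.0001, for 100% of values. Entries that name no gene were left out.

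Genes in all 3 tables with a mean signal of at least 10 were ranked. Of 12239 symbols 12025 matched GENCODE 29 (117 by another symbol), which gave exon lengths. Within each table log2(signal + 1) was fitted with limma 3.58.1 in R 4.3.3 over all groups, control against the mean of the siRNA groups, with Benjamini-Hochberg adjustment below 0.05. edgeR 4.0.16 and DESeq2 1.42.0 were run on recovered reads as alternatives. Tested on simulated data, limma made somewhat more false calls than its nominal rate in 2 tables. Other alternatives were quantile normalization, other pseudocounts and filters, other transcript lengths, a replicate block and leaving out each library.

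Named genes were the 20 highest by TPM, index genes with the 3 highest and the lowest member of each list, up to 5 separated genes per table and direction, up to 8 genes shared by all 3 tables per direction with controls beyond every siRNA library, and the 5 depleted genes. Other list members were named after their values were seen. The members and gene lists were chosen with earlier results of these data known. Promoter sequences (RefSeq, GRCh38.p14) matched 9057 of 11521 ranked genes, too few to describe all ranked genes, so lists were set beside all windows. Ranges given as lowest to highest cover these libraries only, and total reads limit the precision of low genes. Some members of the lists are not reported here.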

Additional observations from a re-analysis of the deposited data

How the results depend on the processing

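Of 812 values of the 16 genes named in all 3 tables, 36 lost their call and 0 changed direction. The balance of higher against lower counts turned under edgeR in the SART1 table (3884 and 3798), with the DDX39A groups alone (2254 and 2421) or without either control in the DDX39A/SARNP table, and without control 2 in the FIBP/TMEM259 table (551 and 566). Ribosomal protein and oxidative phosphorylation genes turned in the SART1 table under quantile normalization, as reported above. Counts over all genes moved by more than 1.5 times as follows. With DESeq2, 1422 genes were lower in control cells in the DDX39A/SARNP table, 639 higher and 554 lower in the FIBP/TMEM259 table, and 164 higher and 224 lower in all 3. With the FIBP groups alone, 1533 were lower in the FIBP/TMEM259 table. Genes set apart by 10 points numbered 6 above and 1 below for SART1, 104 and 67 for DDX39A/SARNP and 2 and 7 for FIBP/TMEM259, and with a mean of at least 50, 86 were below for SART1. Of the first 500 genes 413 were shared. The cause was not tested, except that a wider gap and a longer list change the count by construction.

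Leaving out each library in turn gave 3053 to 3715 higher and 3329 to 3873 lower genes in the SART1 table, 1458 to 2383 and 1475 to 2217 in the DDX39A/SARNP table, 505 to 1163 and 436 to 996 in the FIBP/TMEM259 table, and 153 to 308 and 207 to 357 in all 3. Separated genes ranged from 80 to 146 above and 65 to 161 below for SART1, 518 to 655 and 483 to 690 for DDX39A/SARNP, and 53 to 118 and 60 to 121 for FIBP/TMEM259. The median rank difference ranged from 1.99 to 2.50 points between tables and 0.89 to 1.03 within.

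With a replicate block the counts were 3840 and 3933 for SART1, 2337 and 2186 for DDX39A/SARNP, 1059 and 884 for FIBP/TMEM259, and 294 and 342 in all 3. Same-numbered libraries did not deviate together (correlations of -0.12 to 0.09), so the numbers were not taken to pair the libraries. With the longest transcript in place of all exons, list medians shifted by -2.63 to 7.10 percentile points. Low genes are limited by depth: DDX39A/SARNP and FIBP/TMEM259 controls had fewer reads than the SART1 pair.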
